A study of Mus musculus with 6 samples.

Results

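The genes described here were 10 immediate early genes: the AP-1 genes *Fos*, *Fosb*, *Jun* and *Junb*, the zinc finger genes *Egr1*, *Egr2* and *Egr3*, the nuclear receptor genes *Nr4a1* and *Nr4a3*, and *Ier2*. They were taken by gene name from a table of RNA-seq read counts and made up 10 of its 53084 rows, and all 10 passed the filter on low counts that left 15075 genes to test. The RNA came from the muscle of 3 *Tarsl2*+/+ (WT) mice, numbered 583, 584 and 595, and 3 *Tarsl2*-/- (KO) mice, numbered 588, 589 and 591. All 6 were male C57BL/6 mice aged 6 weeks, kept on standard chow under specific pathogen-free conditions. *Tarsl2* encodes a threonyl-tRNA synthetase-like protein, and the KO allele lacks a CRISPR/Cas9-deleted fragment with exon 3 of the gene in every tissue, so that differences arising in muscle cannot be told apart from those arising elsewhere in the animal. Which muscle was taken is not given in the sources used here.

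Immediate early genes are transcribed within minutes of a stimulus, without new protein synthesis, because the factors that switch them on (SRF with its cofactors, CREB and their relatives) are already bound or waiting to be phosphorylated by ERK, p38 or cAMP-dependent kinases. Their mRNAs are short-lived and decay soon after the stimulus ends, and most encode transcription factors that set off a later wave of genes. In skeletal muscle they are known for their induction by contraction, exercise, injury and adrenergic signals, and their level at the moment of sampling is commonly read as a sign of recent signalling in a tissue.

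Levels are given in CPM, read counts relative to the library total after scaling by the trimmed mean of M-values (TMM). The genotype labels were checked on *Tarsl2* itself. Its read counts were 456, 605 and 464 in the WT mice and 40, 30 and 37 in the KO mice, which is 27.7 ± 4.0 against 1.97 ± 0.231 CPM (mean ± SD, n = 3 each), a log2 fold change of -3.82 ± 0.16 (SE, edgeR quasi-likelihood, Benjamini-Hochberg adjusted p = 6.45e-07). Library totals lay between 16176591 and 20123767 counts, and 3 counts in a library corresponded to 0.149 to 0.185 CPM. All members were above that level in every mouse, and the lowest single count was 8, for *Fosb* in KO 591. As these were bulk libraries, fewer cells of a type and less RNA per cell cannot be told apart.

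The start regions of 7 of the 10 genes were found in a RefSeq table (assembly GRCm38.p6, 250 bases before to 50 bases after the start): *Fos*, *Fosb*, *Jun*, *Junb*, *Egr2*, *Nr4a1* and *Nr4a3*. *Egr1*, *Egr3* and *Ier2* are named only. Motifs were searched on both strands. The CREB half-site TGACG, in reverse CGTCA, occurred in 6 of these 7 genes and in 20.81% of all 32851 windows in the table. *Nr4a1* and *Nr4a3* held 4 copies each, and 3 or more copies occurred in 1.03% of all windows. In *Nr4a3* the copies began 231, 213, 205 and 147 bases before the start, and in *Nr4a1* they began 233, 213, 69 and 40 bases before it. Distances are counted from the RefSeq start. For *Nr4a3* the gene span in the count table begins further upstream, at 48045153 and inside the window. The copy 147 bases before the RefSeq start of *Nr4a3* thus lies within that span. *Fos* held 2 copies, 129 and 66 bases before the start, and a TATAAA box 33 bases before it, a motif present in 13.62% of all windows. *Jun* held no TGACG but 1 copy of TGACATCA 45 bases before the start, a variant AP-1 and ATF site found in 3.619% of all windows. None of the 4 windows printed here held the full palindrome TGACGTCA (1.79% of all windows). The EGR motif GCGGGGGCG (2.907% of all windows) occurred in *Nr4a1*, 60 bases before the start, and in *Fosb*, 50 bases before it. The CArG box bound by SRF (1.629% of all windows), searched as CC, 6 bases of A or T, and GG, was found in *Egr2* only among the 7. Looser matches and sites more than 250 bases before the start were not searched, so the other members may hold such a box there. These matches describe letters in a window and not bound sites. The windows below are shown because *Nr4a3* and *Fos* varied most between the mice, *Nr4a1* was the most abundant member, and *Jun* differs in motif from the others. They are chr4:48045055-48045354 (plus strand) for *Nr4a3*, chr15:101266596-101266895 (plus) for *Nr4a1*, chr12:85473640-85473939 (plus) for *Fos* and chr4:95052173-95052472 (minus) for *Jun*. They are printed 5′ to 3′ on the strand of the gene, with TGACG or CGTCA, TGACATCA and TATAAA in capitals.
Nr4a3: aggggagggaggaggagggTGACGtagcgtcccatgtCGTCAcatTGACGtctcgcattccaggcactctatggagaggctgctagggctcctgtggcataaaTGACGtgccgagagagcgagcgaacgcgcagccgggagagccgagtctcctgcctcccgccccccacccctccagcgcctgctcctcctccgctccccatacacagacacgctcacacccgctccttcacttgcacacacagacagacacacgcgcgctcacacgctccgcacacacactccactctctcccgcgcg
Nr4a1: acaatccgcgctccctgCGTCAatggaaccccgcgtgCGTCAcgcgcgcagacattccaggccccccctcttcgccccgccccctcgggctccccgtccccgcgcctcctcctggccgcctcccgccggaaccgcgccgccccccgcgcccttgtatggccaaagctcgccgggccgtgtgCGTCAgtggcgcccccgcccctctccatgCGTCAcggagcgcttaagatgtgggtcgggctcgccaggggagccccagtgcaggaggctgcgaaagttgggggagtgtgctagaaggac
Fos: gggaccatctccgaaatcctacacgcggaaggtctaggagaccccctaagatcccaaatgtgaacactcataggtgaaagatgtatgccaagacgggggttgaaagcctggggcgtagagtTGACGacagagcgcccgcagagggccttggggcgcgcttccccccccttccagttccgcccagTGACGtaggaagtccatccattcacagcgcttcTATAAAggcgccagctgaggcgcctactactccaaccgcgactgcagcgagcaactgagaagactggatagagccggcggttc
Jun: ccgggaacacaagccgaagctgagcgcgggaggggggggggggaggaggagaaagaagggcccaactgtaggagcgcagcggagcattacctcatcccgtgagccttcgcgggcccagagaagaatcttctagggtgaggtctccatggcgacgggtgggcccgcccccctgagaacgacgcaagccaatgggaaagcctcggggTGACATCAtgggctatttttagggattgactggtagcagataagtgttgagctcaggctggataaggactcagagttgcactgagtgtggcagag

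The comparison of KO with WT muscle asked whether loss of *Tarsl2* was accompanied by a different level of these genes. None of the 10 members passed an adjusted p of 0.05 (edgeR quasi-likelihood, Benjamini-Hochberg over all tested genes), against 342 of 15075 tested genes, or 2.27%. An unadjusted p under 0.05 was reached by 2 members, *Egr1* and *Nr4a3*, which is 20% of them against 19.8% of all tested genes. The log2 fold change of KO over WT was positive in 4 members and negative in 6, with a median of -0.12, beside 0.0025 over all tested genes. WT and KO mice did not overlap in 1 member, *Egr1*, whereas they did not overlap in 24.6% of all tested genes. The spread between mice of 1 genotype was large in *Nr4a3*, *Fos* and *Nr4a1*. With 3 mice against 3, an exact two-sided permutation test cannot give a p below 0.1.

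**Figure D1:**
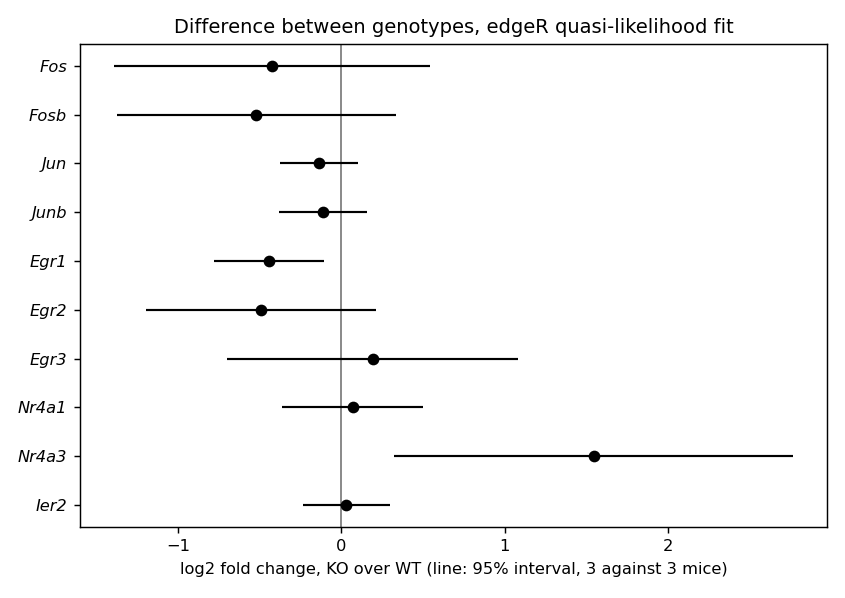
Log2 fold change of KO over WT for each immediate early gene (point) with its 95% interval (line), from the edgeR quasi-likelihood fit of 3 WT against 3 KO mice, where the vertical line marks 0. Only the intervals of *Egr1*, from -0.78 to -0.10, and *Nr4a3*, from 0.32 to 2.77, exclude 0, and neither gene passed the adjusted p threshold.

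*Fos* (chromosome 12, 85473890 to 85477273, GRCm38, plus strand, 4 exons) encodes the inducible partner of JUN proteins in the AP-1 dimer. Its level was 22.7, 10.8 and 13.4 CPM in WT 583, 584 and 595 and 22.4, 7.36 and 5.15 CPM in KO 588, 589 and 591. One mouse of each genotype stood above 22 CPM and the other mice lay below 14 CPM, so the genotypes overlapped. The means were 15.6 ± 6.23 and 11.6 ± 9.39 CPM (SD, n = 3), and the log2 fold change was -0.42 ± 0.44 (SE, 95% interval -1.39 to 0.54, edgeR quasi-likelihood, Benjamini-Hochberg adjusted p = 0.644). The highest KO mouse had 4.35 times the level of the lowest, and the 95% counting intervals of the 2 mice, 363.7 to 443.3 counts for 402 and 86.78 to 128.2 counts for 106, were far apart. Leaving out KO 588 moved the log2 fold change to -1.33 (adjusted p = 0.0659 in the same edgeR test), leaving out KO 591 moved it to -0.058, and leaving out WT 583 moved it to -0.066.

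*Fosb* (chromosome 7, 19302696 to 19310051, minus strand, 4 exons), whose truncated splice product is known to persist after repeated stimulation, had the lowest level per length of the members. It had 23, 18 and 19 counts in the WT mice and 18, 15 and 8 in the KO mice, or 1.34, 0.956 and 0.997 against 1.00, 0.936 and 0.389 CPM. The ranges overlapped, with KO 591 alone below the others. The log2 fold change was -0.52 ± 0.39 (SE, 95% interval -1.37 to 0.34, edgeR quasi-likelihood, Benjamini-Hochberg adjusted p = 0.50), and the counting intervals of the highest and lowest mouse overlapped in both genotypes. Without KO 591 the log2 fold change of *Fosb* was -0.18, and without KO 588 it was -0.76.

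*Jun* and *Junb* encode the JUN side of AP-1. *Jun* (chromosome 4, 95049034 to 95052222, minus strand, 1 exon) can activate its own promoter, and it came next to *Nr4a1* in level per length. It stood at 62.4, 66.2 and 51.9 CPM in WT and 60.5, 53.9 and 50.1 CPM in KO mice. Those ranges overlapped over most of their width. Its log2 fold change was -0.13 ± 0.11 (SE, 95% interval -0.37 to 0.10, edgeR quasi-likelihood, Benjamini-Hochberg adjusted p = 0.538). *Junb* (chromosome 8, 84974484 to 84978718, minus strand, 1 exon), which encodes a weaker activator than JUN on many AP-1 sites, stood at 11.9, 11.2 and 11.5 CPM in WT and 12.2, 9.67 and 10.2 CPM in KO mice. The WT values lay within the KO range, and the log2 fold change was -0.11 ± 0.12 (SE, 95% interval -0.38 to 0.16, edgeR quasi-likelihood, Benjamini-Hochberg adjusted p = 0.673). Both intervals lay between -0.38 and 0.16, so larger differences in the mean level were outside them. The *Jun* locus shares 689 bases with *Junos* on the opposite strand, which had 2.07 CPM in WT muscle, and the span of *Junb* shares 351 bases with *Prdx2*, which had 318.5 CPM in WT muscle. Whether the counting used strand is not given in the sources used here, so reads of overlapping partners cannot be told apart.

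The EGR genes encode zinc finger factors that bind a shared GC-rich motif. *Egr1* (chromosome 18, 34859823 to 34864984, plus strand, 2 exons), the member of the family most often used as a marker of ERK signalling, stood at 11.4, 10.9 and 9.40 CPM in WT and 8.64, 8.55 and 6.22 CPM in KO mice. Each KO mouse was below each WT mouse. The log2 fold change was -0.44 ± 0.15 (SE, 95% interval -0.78 to -0.10), a KO level of 0.736 times the WT level. The unadjusted p was 0.0148 in edgeR's quasi-likelihood test and the Benjamini-Hochberg adjusted p was 0.145, and the exact permutation test gave p = 0.1, the smallest it allows. Over all the alternative settings the adjusted p of *Egr1* from edgeR, limma or DESeq2 lay between 0.0566 and 0.361 and the log2 fold change between -0.52 and -0.30.

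*Egr2* (chromosome 10, 67535475 to 67542188, plus strand, 2 exons), which is required for myelination by Schwann cells, had 1.64, 1.86 and 2.52 CPM in WT and 1.84, 1.62 and 0.875 CPM in KO mice. The ranges overlapped and KO 591 was again the lowest of the 6. The log2 fold change was -0.49 ± 0.32 (SE, 95% interval -1.19 to 0.21, edgeR quasi-likelihood, Benjamini-Hochberg adjusted p = 0.431), and it was -0.22 without KO 591 and -0.71 without KO 588. *Egr3* (chromosome 14, 70077203 to 70082614, plus strand, 2 exons), which is required for muscle spindles to form, had 1.23, 0.531 and 1.36 CPM in WT and 1.51, 1.37 and 0.729 CPM in KO mice. The lowest of the 6 was a WT mouse, 584, with 10 counts. The log2 fold change of *Egr3* was 0.19 ± 0.41 (SE, 95% interval -0.70 to 1.08, edgeR quasi-likelihood, Benjamini-Hochberg adjusted p = 0.843), and its sign turned when WT 584 or KO 588 was left out. With 10 to 48 counts in a library, differences within these wide intervals were not detectable for *Egr2* and *Egr3*.

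The NR4A genes encode orphan nuclear receptors that act without a known ligand and are known in muscle as activators of metabolic genes after exercise and adrenergic stimulation. *Nr4a1* (chromosome 15, 101266846 to 101274792, plus strand, 8 exons) was the most abundant member per length in both genotypes. Its level was 103.3, 82.0 and 65.2 CPM in WT and 112.2, 87.7 and 63.0 CPM in KO mice. The spread was 1.58-fold among WT and 1.78-fold among KO mice, and the genotypes overlapped almost fully. The log2 fold change was 0.07 ± 0.20 (SE, 95% interval -0.36 to 0.50, edgeR quasi-likelihood, Benjamini-Hochberg adjusted p = 0.891), with a sign that turned when WT 595 or KO 588 was left out.

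*Nr4a3* (chromosome 4, 48045153 to 48086447, plus strand, 8 exons) had the largest log2 fold change and the largest spread among the members. It had 26, 19 and 31 counts in WT 583, 584 and 595, and 138, 57 and 21 counts in KO 588, 589 and 591. In CPM these were 1.52, 1.01 and 1.63 against 7.69, 3.56 and 1.02. KO 588 and KO 589 were above all WT mice, while KO 591 lay within the WT range. The 95% counting intervals of the 3 KO mice, 115.9 to 163, 43.17 to 73.85 and 13.0 to 32.1 counts, did not overlap one another. The means were 1.39 ± 0.330 and 4.09 ± 3.37 CPM (SD, n = 3), a 2.92-fold higher fitted level in KO with a 95% interval from 1.25 to 6.82. On the log2 scale this was 1.55 ± 0.56 (SE). The unadjusted p was 0.0177 in edgeR's quasi-likelihood test, the Benjamini-Hochberg adjusted p was 0.156, and the exact permutation test gave p = 0.3.

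The difference in *Nr4a3* rested on single KO mice. Without KO 591 the log2 fold change was 2.02 and passed the threshold (edgeR quasi-likelihood, Benjamini-Hochberg adjusted p = 0.0315, with 2 KO mice), and without KO 588 it was 0.69 and did not. The fit without KO 591 called 142 of 15404 tested genes, or 0.922%. With almost no filter on low counts, 25553 genes were fitted, 5.62% of them were called, and *Nr4a3* and *Fos* were among the calls (adjusted p = 2.93e-07 and 0.0281 in the same edgeR test). In every other setting except the one without KO 591 no member was called.

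*Ier2* (chromosome 8, 84661331 to 84662852, minus strand, 1 exon) encodes a small nuclear protein induced together with the AP-1 genes. It had 12.5, 15.5 and 13.4 CPM in WT and 14.0, 15.5 and 12.9 CPM in KO mice. These values overlapped fully and the means, 13.8 ± 1.56 and 14.1 ± 1.30 CPM (SD, n = 3), were within 1 SD of each other. Its log2 fold change was 0.03 ± 0.12 (SE, 95% interval -0.24 to 0.30, edgeR quasi-likelihood, Benjamini-Hochberg adjusted p = 0.925), and its sign turned when WT 583 or KO 589 was left out.

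**Figure D2:**
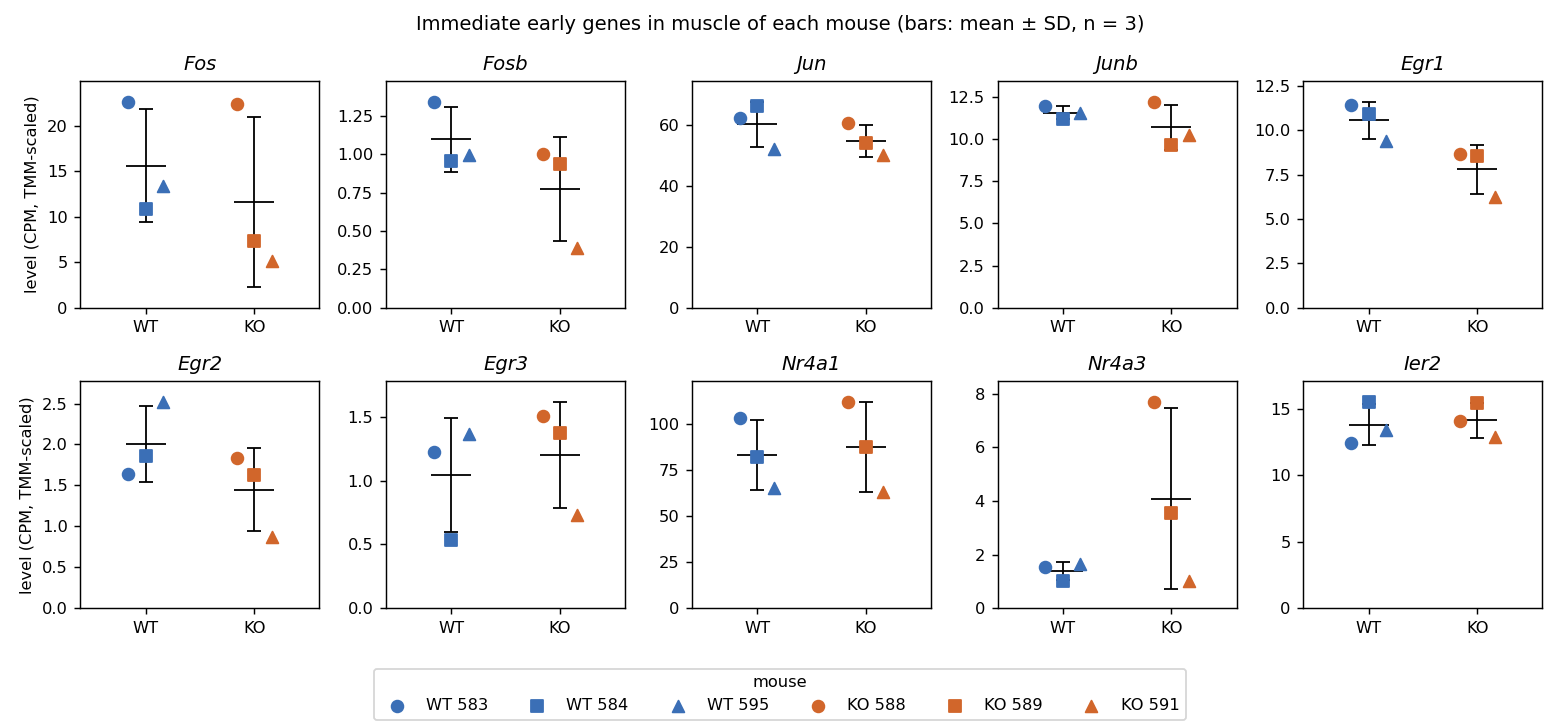
Level of each immediate early gene in each mouse, in TMM-scaled CPM on axes that start at 0, where symbols mark the mice, horizontal lines the mean and bars ± SD of 3 mice per genotype. *Egr1* is the only panel in which WT and KO mice do not overlap, and the KO mice of *Fos* and *Nr4a3* spread from 5.15 to 22.4 CPM and from 1.02 to 7.69 CPM.

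Levels were compared between genes per kilobase of the gene length in the count table. In WT muscle the order of mean levels was *Nr4a1* with 33.8 CPM per kb, *Jun* with 18.9, *Ier2* with 9.07, *Fos* with 6.65, *Junb* with 5.02, *Egr1* with 2.36, *Egr2* with 0.590, *Egr3* with 0.236, *Nr4a3* with 0.231 and *Fosb* with 0.176 CPM per kb. The ranges of the 3 WT mice overlapped between *Ier2* and *Fos*, *Fos* and *Junb*, *Egr3* and *Nr4a3*, and *Nr4a3* and *Fosb*, so the order within those neighbours was not separated by the spread. In KO muscle *Nr4a3* came to 0.683 CPM per kb on average, above *Egr2* at 0.425, but its mice ran from 0.170 to 1.28 CPM per kb and covered the values of *Egr2* in every KO mouse. The length of *Nr4a1* in the table, 2474 bases, is shorter than the 3509 exonic bases of its GENCODE vM21 model, with which its WT level would be 23.8 CPM per kb and still the first in the order. With that length its lowest WT mouse would lie below the highest WT mouse of *Jun*, so the spread would not separate these genes. *Nr4a1* and *Nr4a3*, related receptors, stood at 33.8 and 0.231 CPM per kb in WT muscle, and the FOS genes *Fos* and *Fosb* differed in the same direction, 6.65 against 0.176 CPM per kb.

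The spread between mice of 1 genotype was measured as the pooled SD of log2 CPM within genotype. Its median was 0.403 over the 10 members, with quartiles of 0.174 and 0.564, and 0.171 over all tested genes, with quartiles of 0.111 and 0.275. *Nr4a3* had an SD of 1.02 and *Fos* one of 0.865, at percentiles 99.7 and 99.2 of all tested genes. Low counts widen the spread, so each member was also placed among the genes within 0.5 log2 CPM of its own level. On that scale *Fos* lay at percentile 99.9, *Nr4a3* at 99.4 and *Nr4a1*, with an SD of 0.377, at 98.4. *Egr3* (SD 0.590) lay at 87.9, *Jun* (0.161) at 80.2, *Egr2* (0.430) at 76.1, *Egr1* (0.213) at 73.3 and *Fosb* (0.488) at 68.6. *Ier2*, with an SD of 0.146 at percentile 50.5, and *Junb*, with 0.128 at 32.7, varied no more than other genes of their level. The percentiles describe these 6 libraries and were given no test.

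**Figure D3:**
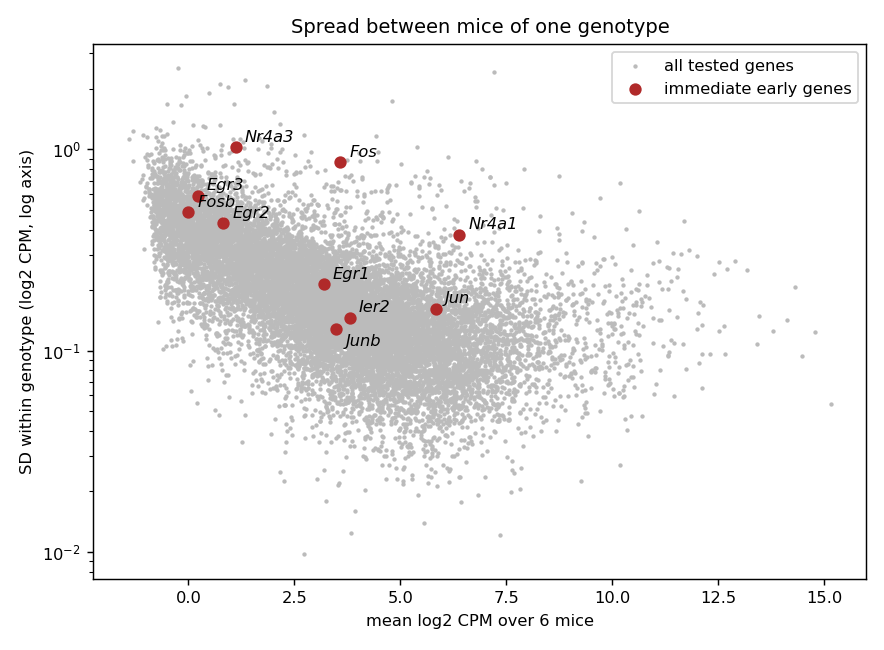
Pooled SD of log2 CPM within genotype (log axis) against the mean log2 CPM over the 6 mice, for all 15075 tested genes (grey) and the immediate early genes (red). *Nr4a3*, *Fos* and *Nr4a1* lie at the upper edge of the genes of their level, and *Ier2* and *Junb* lie inside the cloud.

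Most members ranked the KO mice in the same order. KO 588 had the highest KO value in 9 of 10 members, all but *Ier2*, beside 33.9% of all tested genes. KO 591 had the lowest KO value in 9 of 10, all but *Junb*, beside 32.6% of all tested genes. The full order 588, 589, 591 from high to low held in 8 of 10 members and in 17.2% of all tested genes. The counting intervals of the highest and lowest KO mouse were separate in 4 of 10 members, *Fos*, *Jun*, *Nr4a1* and *Nr4a3*. In the other members these intervals overlapped, so the order of the KO mice was not separated from counting error there. In *Egr1*, for example, KO 588 and KO 589 stood at 8.64 and 8.55 CPM. KO 591 was the lowest of all 6 mice in 6 members and KO 588 the highest of all 6 in 4. The WT mice had no such shared order: WT 583 was the highest WT mouse in 5 members, WT 584 in 2 and WT 595 in 3. The SD of log2 CPM was larger among KO than among WT mice in 7 of 10 members, beside 49.6% of all tested genes, and its median over the members was 0.465 in KO and 0.274 in WT mice, beside 0.155 and 0.157 over all tested genes. Genes measured in the same mouse are not independent of one another. These counts describe 3 mice per genotype, and the difference in spread between the genotypes was not tested.

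**Figure D4:**
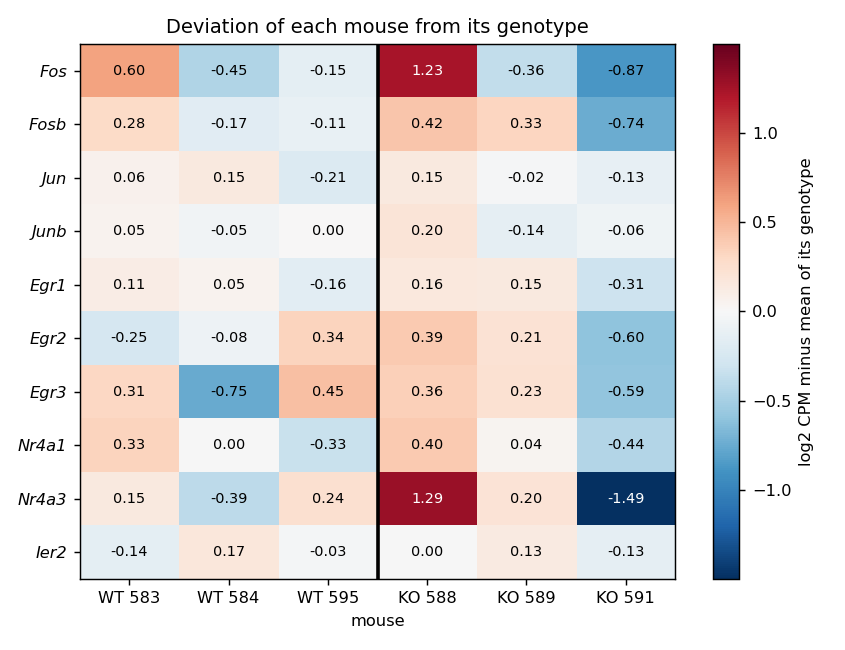
Deviation of each mouse from the mean log2 CPM of its genotype, for each immediate early gene (rows) and mouse (columns; the vertical line separates WT from KO); red is above and blue below the genotype mean, and each cell prints its value. The KO 588 column is above the mean or, for *Ier2*, at it to 2 decimals, and the KO 591 column is below it in every row, from -1.49 for *Nr4a3* to -0.06 for *Junb*.

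The other genes of the immediate early response and its control were read from lists written by hand. Of 7 tested relatives in the AP-1, EGR, NR4A and IER families none was called in either direction, with a median log2 fold change of -0.11. *Egr4* had 0 counts in every library, and *Npas4* and *Arc* of the lists that follow did not pass the filter on low counts. *Nr4a2*, the third NR4A receptor gene, had a log2 fold change of 0.36 (edgeR quasi-likelihood, Benjamini-Hochberg adjusted p = 0.516). Of 17 other immediate early transcription factors 2 rose and none fell, beside 2.27% of all tested genes called in either direction. They were *Maff*, a small MAF factor, which had 7.60, 6.91 and 8.29 CPM in WT and 11.3, 13.7 and 13.6 CPM in KO mice, and *Per1*, an inducible clock gene, which had 34.8, 31.2 and 25.5 CPM in WT and 46.2, 55.4 and 46.2 CPM in KO mice. Neither gene overlapped between genotypes, and the log2 fold changes were 0.76 ± 0.13 and 0.69 ± 0.12 (SE, edgeR quasi-likelihood, Benjamini-Hochberg adjusted p = 0.0165 and 0.0174). Of 17 immediate early effectors, proteins other than transcription factors, none was called.

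Among 15 genes of negative feedback on the response, which encode dual-specificity phosphatases, Sprouty and Spred inhibitors of the ERK pathway, ZFP36 mRNA decay factors and the EGR corepressors NAB1 and NAB2, 1 fell and none rose, again beside 2.27% of all tested genes called. It was *Dusp6*, a phosphatase of ERK that is itself induced by ERK signalling, with 34.6, 32.2 and 39.6 CPM in WT and 21.6, 22.4 and 21.9 CPM in KO mice, and a log2 fold change of -0.69 ± 0.10 (SE, edgeR quasi-likelihood, Benjamini-Hochberg adjusted p = 0.00616). The genotypes did not overlap in 7 of these 15 genes, beside 24.6% of all tested genes. Of those, *Nab1* and *Spred2* were higher in KO mice, with log2 fold changes of 0.17 and 0.18, and the rest were lower. The summed level of the list was 389 to 414 CPM in WT and 338 to 358 CPM in KO mice. Its most abundant gene, *Dusp1*, had means of 143 CPM in WT and 117 CPM in KO mice and overlapped between genotypes. None of 16 genes of the upstream kinase cascades (RAS, RAF, MEK, ERK, RSK and MSK, with *Mapk8* and *Mapk9* for JNK and *Mapk14* for p38), 14 upstream transcription factor genes such as *Srf* and *Creb1*, or 6 stress-inducible heat shock genes was called. Over the 56 tested genes of the family, transcription factor, effector and feedback lists, KO 588 was the highest KO mouse in 48.2%. KO 591 was the lowest in 35.7% and KO 589 in 41.1%. The full order held in 25%, and the median SD within genotype was 0.194. In the upstream kinase, upstream transcription factor and heat shock lists the full order held in 25%, 35.7% and 50%.

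Markers of the cell types in the tissue moved with genotype in part. Of 11 tested muscle fibre markers 2 were called, both higher in KO mice (*Ckm* and *Myh1*), beside 2.27% of all tested genes, and the list summed to 93919 to 100020 CPM in WT and 103920 to 114030 CPM in KO mice. Of 8 macrophage and leukocyte markers 3 were called, all lower (*Adgre1*, *Csf1r* and *Lyz2*), beside the same 2.27%, with sums of 1069.7 to 1263.5 against 613 to 780 CPM. Of 10 endothelial markers 1 was called, *Cdh5*, also lower, beside the same 2.27%. The endothelial sums overlapped, with 242 to 269 CPM in WT and 197 to 254 CPM in KO mice. Their log2 fold changes were negative in 9 and positive in 1, *Flt1*, at 0.55, whose genotypes did not overlap. Fibroblast, smooth muscle, satellite cell, Schwann cell, adipocyte, neutrophil and erythrocyte lists had no called gene. The fibroblast sums nevertheless did not overlap, with 11038 to 13012 CPM in WT and 9253 to 10725 CPM in KO mice. Nor did the erythrocyte sums, with 4748 to 10392 CPM in WT and 4166 to 4536 CPM in KO mice. All 8 fibroblast and all 6 erythrocyte log2 fold changes were negative. In the other lists without a called gene the sums overlapped between genotypes. Among the KO mice the summed muscle fibre markers were 114030, 104580 and 103920 CPM in 588, 589 and 591, and the macrophage and leukocyte markers 672, 613 and 780 CPM. In the same KO mice the adipocyte markers summed to 2299.8, 4365.5 and 2640 CPM and the Schwann cell markers to 129, 219 and 150 CPM. KO 589 was the highest KO mouse in both of these sums. The neutrophil markers summed to 62.0, 2.02 and 13.5 CPM in WT 583, 584 and 595 and to 2.68, 2.06 and 3.99 CPM in KO 588, 589 and 591. In the same order of mice *Fos* stood at 22.7, 10.8 and 13.4 CPM in WT and at 22.4, 7.36 and 5.15 CPM in KO mice. The part of cell composition in the levels of the immediate early genes was not tested. Retinal markers, looked at because the sample records describe a retinal extraction, had at most 7 counts in any library.

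Among the genes whose profile over the 6 libraries was most like the mean standardized profile of the 10 members were *Tnfaip6*, *Chaf1b*, *Mcmbp* and *Usp50*. Their Pearson correlations with it were 0.998, 0.986, 0.984 and 0.983 over 6 libraries, and their Spearman correlations 1, 0.943, 1 and 1. Without KO 588 and KO 591, the mice farthest from the median of the profile, the Pearson correlations over the remaining 4 libraries were 0.989, 0.728, 0.958 and 0.887. *Tnfaip6*, a secreted hyaluronan-binding protein gene, followed the members with 9.0, 8.39 and 8.24 CPM in WT and 9.48, 8.23 and 6.03 CPM in KO mice, a much narrower range than that of *Fos*. Of 12303 genes compared, 60 had a correlation over 0.9, and with this many genes and 6 libraries the list is a description with no test.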

How the data were processed

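RNA from the muscle of 3 WT and 3 *Tarsl2* KO mice was sequenced by the authors (stranded mRNA libraries, paired ends), and mapped to mm10 with HISAT2. The values deposited are raw counts, whole numbers for each of 53084 rows, with no normalization. The deposited table also gives a gene length. The sample records name another aligner, Bowtie 0.12.2, and an older build, but 52403 of the table's Ensembl genes (52636 in all) are in GENCODE vM21 on GRCm38, 95.2% of them with the same span. The counting tool and its strand setting are not given in the sources used here. Genotypes came from the sample records, where the title of KO 589 is written differently from those of the other KO mice.

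Genes were kept by filterByExpr (minimum count 10, minimum total 15), scaled by TMM and compared in edgeR 4.0.16 in R 4.3.3 (quasi-likelihood, with no factor but genotype), with Benjamini-Hochberg adjustment over all 15075 genes and a threshold of 0.05. The SE of a log2 fold change was its size over the root of F, and intervals are at the 95% level. Log2 CPM used a prior count of 2. Counting intervals are exact Clopper-Pearson and hold for counting error alone, as reads had no molecular identifiers. Between mice of 1 genotype the common coefficient of variation was 12.1%. Single genes were also compared by exact two-sided permutation tests. The 5 genes of most similar profile were ranked by Pearson's r among genes of at least 1 log2 CPM on average, and 1 of them is not reported here. Alternatives were DESeq2 1.42.0, limma-voom 3.58.1, other scalings and filters, and leaving out each mouse. The procedure was tested on simulated data. The 10 genes and all lists were chosen with earlier results of these data known. All 10 genes are named, and from the other lists the called genes, a relative of the NR4A genes and examples.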

Additional observations from a re-analysis of the deposited data

How the results depend on the processing

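Over 13 alternative settings (DESeq2, limma-voom, 3 other scalings, 2 other filters and leaving out each mouse; 12 for *Fosb*, which was not tested with at least 10 counts in every library), 7 of the 10 members kept the sign of their log2 fold change. No alternative scaling turned a sign, and the median log2 fold change of all genes stayed between -0.019 and 0.0025 over the scalings. The sign turned in 3 members when a mouse was left out. *Ier2* ran from -0.042 (without WT 583) to 0.12 (without WT 584), with -0.036 without KO 589. *Egr3* ran from -0.13 (without WT 584) to 0.47 (without KO 591), with -0.010 without KO 588. *Nr4a1* ran from -0.15 (without KO 588) to 0.26 (without KO 591), with -0.083 without WT 595.

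Among the members that kept their sign, values with a mouse left out ran from -0.23 to -0.059 for *Jun* (without WT 595, without WT 584) and from -0.21 to -0.042 for *Junb* (without KO 588, without KO 589). The number of members past the threshold was 0 in edgeR's main test and 2 with almost no filter on low counts, and it lay between 0 and 1 when a mouse was left out. The 1 was *Nr4a3* without KO 591, a fit that called 0.922% of all tested genes. The number of genes called over the whole table was 342, 719 with DESeq2 (310 higher and 409 lower in KO), 1437 with almost no filter, and 81 (without WT 583) to 625 (without WT 584) when a mouse was left out. The cause was not tested. The median log2 fold change of the members lay between -0.21 (without KO 588) and -0.067 (without KO 591) when a mouse was left out. No paired analysis was possible because the sample labels used here give no litter or other pairing of WT with KO mice. Depth limits *Fosb*, *Egr2*, *Egr3* and *Nr4a3*, which had 8 to 57 counts in every library except for *Nr4a3* in KO 588. The KO mice nevertheless differed in *Nr4a3* by more than counting error, as their counting intervals did not overlap one another.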
